A study of Mus musculus with 13 samples.

Results

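Polycomb repressive complex 2 (PRC2) is described here through the transcripts of 10 of its core and accessory subunits in mouse tongue epithelium. The members were the rows of the authors' deposited table named Ezh1, Ezh2, Suz12, Eed, Jarid2, Aebp2, Mtf2, Phf1, Phf19 and Rbbp7, which are 10 of 24972 genes, and all 10 were found. Bulk polyA RNA of tongue epithelia was sequenced from 13 mouse samples. Of these, 7 control samples had the genotype Krt14-Cre(-); LSL-H3K36M and 6 samples, called H3K36M, had the genotype Krt14-Cre(+); LSL-H3K36M. Both groups therefore carried the Cre-inducible allele of H3K36M, a histone H3 in which lysine 36 is replaced by methionine, and Cre was present in the H3K36M group only, so effects of Cre and of the mutant histone cannot be told apart. Krt14-Cre acts in keratin-14 expressing tissues, which in the tongue include the basal layer of the epithelium and its progeny. Which other cells of the tissue keep the silent allele is not given in the labels. Age, sex and further treatment of the mice are not given in the labels.

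PRC2 places methyl groups on lysine 27 of histone H3 (H3K27), a mark of silenced chromatin, and PRC1 acts with it at the same genes. Its catalytic subunit is EZH2 or the paralogue EZH1, which works only together with SUZ12, EED and a histone-binding RBBP protein. Accessory subunits split the complex into a form with JARID2 and AEBP2 and a form with one of the Polycomb-like proteins PHF1, MTF2 and PHF19. Methylation of lysine 36 on the same histone tail hinders PRC2, and loss of that methylation is known to let H3K27 methylation spread. In mouse epidermis EZH2 is highest in proliferating basal cells and declines as cells differentiate.

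The data are the authors' fitted level of each group, in normalised counts, and their DESeq2 log2 fold change of H3K36M over control with its standard error (SE). Values of single samples were not used here, so neither the spread within a group nor any overlap of samples can be shown. The mean total was 15769751 normalised counts per sample. No PRC2 transcript passed the authors' test. All 10 members had an adjusted p in the authors' deposited table, and 0 were below 0.05 by the authors' DESeq2, against 3.43% of all 17449 genes tested, 1.85% higher and 1.59% lower in H3K36M. At an unadjusted p below 0.05 there were also 0 members, where the share over all tested genes was 9.82%. With so few members, a count of 0 lies near that background. The smallest p belonged to Jarid2 (p = 0.102, adjusted p = 0.712 by the authors' DESeq2). Of the log2 fold changes in the authors' deposited table, 7 were above 0 and 3 below, from −0.27 (Jarid2) to 0.62 (Phf19). The median was 0.11, beside 0.07 over all tested genes, of which 56.6% were above 0.

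**Figure D1:**
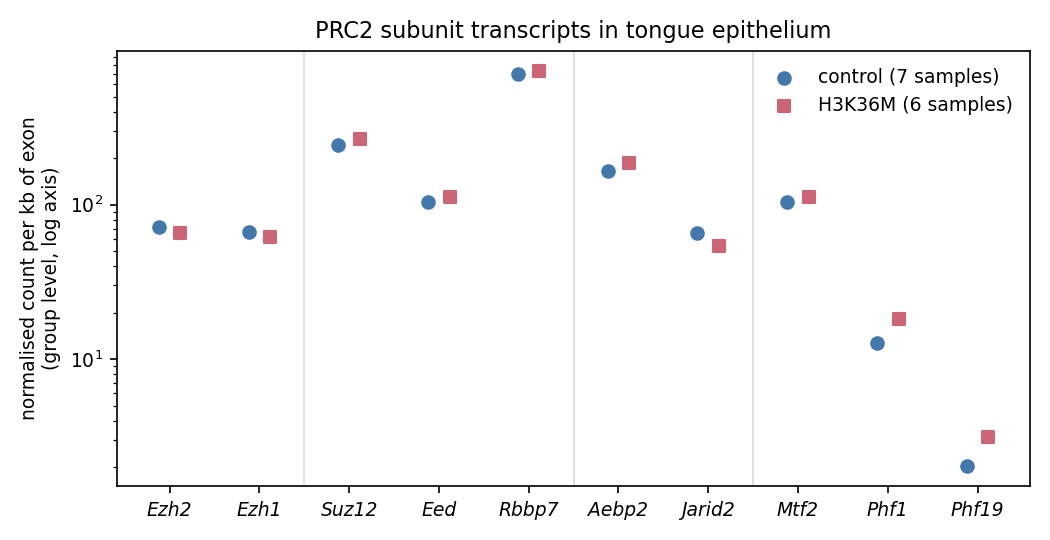
Group level of each PRC2 subunit transcript in normalised counts per kb of exon (vertical log axis) in control (circles, 7 samples) and H3K36M (squares, 6 samples); no error is drawn because values of single samples were not used. The levels run from 696 (Rbbp7) to 2.02 (Phf19) per kb in control, and each pair of symbols lies close together beside that range.

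The transcripts of both catalytic subunits stood at similar levels and neither differed detectably between the groups. Ezh2, on chromosome 6 (47530139 to 47595341, minus strand, GRCm38), had a level of 480.2 normalised counts in control and 437 in H3K36M in the authors' deposited table. Its log2 fold change of −0.14 (SE 0.29, 95% interval −0.71 to 0.44, adjusted p = 0.990 by the authors' DESeq2) leaves out a change of 2-fold in either direction. Ezh1, on chromosome 11 (101191115 to 101226463, minus strand), the form linked to cells that have stopped dividing, had 493 in control and 460.5 in H3K36M in the same deposited table by the authors. Its log2 fold change was −0.10 (SE 0.26, 95% interval −0.62 to 0.42, adjusted p = 0.990 by the authors' DESeq2). Per kb of exon the level of Ezh2 was 1.09 times that of Ezh1 in control and 1.06 times in H3K36M. With the longest transcript in place of all exons these ratios were 1.47 and 1.43, so the near equality depends on the length used. The relative change of the ratio between the groups does not depend on it, since a fixed length cancels. The log2 fold change of Ezh2 was 0.04 below that of Ezh1, a difference whose error needs values of single samples.

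Because these paralogues are often contrasted as a cell cycle-linked and a constitutive enzyme, their promoters are shown here (RefSeq, GRCm38.p6, 250 bases before to 50 after the annotated start, gene strand, 5′ to 3′). Capitals mark the letters TTTCCCGC, TTTCGCGC, TTTGCCGC or TTTGGCGC on either strand, which spell the consensus of the E2F factors of the cell cycle; these motifs can overlap one another only across strands. The windows are chr6:47594981-47595280 for Ezh2 and chr11:101226414-101226713 for Ezh1, both on the minus strand.
Ezh2: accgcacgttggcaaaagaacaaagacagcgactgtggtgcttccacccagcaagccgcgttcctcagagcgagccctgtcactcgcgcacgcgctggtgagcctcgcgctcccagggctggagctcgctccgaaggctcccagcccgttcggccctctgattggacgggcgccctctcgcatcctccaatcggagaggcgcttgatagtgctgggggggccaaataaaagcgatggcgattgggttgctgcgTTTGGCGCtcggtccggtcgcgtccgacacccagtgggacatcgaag
Ezh1: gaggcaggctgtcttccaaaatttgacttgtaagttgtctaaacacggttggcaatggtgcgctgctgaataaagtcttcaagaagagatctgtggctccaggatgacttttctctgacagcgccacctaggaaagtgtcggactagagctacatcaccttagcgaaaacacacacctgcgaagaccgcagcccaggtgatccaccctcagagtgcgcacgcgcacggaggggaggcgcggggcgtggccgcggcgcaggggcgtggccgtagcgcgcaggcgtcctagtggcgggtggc
The Ezh2 window holds 1 match, which begins at base 254 of the window, just after the start, and 31 CG pairs. The Ezh1 window holds 0 matches and 23 CG pairs. Of the 10 members, 3 had a match in a promoter window (Ezh2, Suz12 and Phf19), where 2.60% of 27025 genes with a window had one. In Suz12 and Phf19 the match began at bases 32 and 43 of the window, well before the start. For each member the window with most CG pairs held 17 to 41 of them (median 27), beside a median of 8 over all genes. Every motif holds a CG pair, so the share over all genes is no background of like CG content. A match describes letters only and says nothing of whether a factor is bound.

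The transcripts of the other core subunits gave similarly small differences, and Eed and Rbbp7 had smaller SEs than both catalytic subunits. Suz12 on chromosome 11 (79993106 to 80034123, plus strand), the subunit that holds the enzyme and the accessory proteins together, had 1200.0 normalised counts in control and 1318 in H3K36M in the authors' deposited table. Its log2 fold change was 0.14 (SE 0.32, 95% interval −0.49 to 0.76, adjusted p = 0.990 by the authors' DESeq2). Eed on chromosome 7 (89954654 to 89980983, minus strand), which reads the finished H3K27 mark and stimulates the enzyme, had 396 in control and 426 in H3K36M in the authors' deposited table. It had the smallest SE of the 10 members, with a log2 fold change of 0.11 (SE 0.16, 95% interval −0.20 to 0.41). Rbbp7 on chromosome X (162760402 to 162779092, plus strand), a histone-binding protein shared with other chromatin complexes, had 2025 in control and 2146 in H3K36M in the authors' deposited table, which is a log2 difference of 0.08 (SE 0.24). Its close paralogue Rbbp4, no member of the 10, stood at 1431 and 1517 there, a log2 fold change of 0.08 with an SE of only 0.11. For Eed, Rbbp7 and Rbbp4 the 95% interval from the authors' deposited table also leaves out a change of 1.5-fold, and for Suz12 it leaves out 2-fold but not 1.5-fold.

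Jarid2 and Aebp2, which mark the same form of the complex, had estimates on opposite sides of 0. Jarid2 on chromosome 13 (44729474 to 44921643, plus strand), a DNA-binding recruiter of PRC2, had 633 normalised counts in control and 524 in H3K36M in the authors' deposited table. Its fold of H3K36M over control was 0.827 (95% interval 0.659 to 1.04), a log2 fold change of −0.27 (SE 0.17) that did not pass. Aebp2 on chromosome 6 (140622663 to 140678472, plus strand), a zinc finger protein that stabilises the complex, had 1635 in control and 1829 in H3K36M in the authors' deposited table. Its fold was 1.12 (95% interval 0.890 to 1.41), with a log2 fold change of 0.16 (SE 0.17, adjusted p = 0.990 by the authors' DESeq2). Per kb of exon Aebp2 stood at 2.55 times Jarid2 in control and at 3.44 times in H3K36M. With the longest transcript as the length these ratios were 3.64 and 4.92. The log2 fold changes differ by 0.44, and this difference was not tested, since the members vary together between samples by an unknown amount.

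The Polycomb-like transcripts were led by Mtf2 and were the least precisely measured. Mtf2 on chromosome 5 (108065674 to 108109004, plus strand), which binds unmethylated CG-rich DNA, had 595 normalised counts in control and 640.5 in H3K36M in the authors' deposited table. The log2 fold change was 0.11 (SE 0.47), and its 95% interval, −0.81 to 1.02, just fails to leave out a doubling. Phf1 on chromosome 17 (26933052 to 26937908, plus strand) had 44.2 in control and 63.8 in H3K36M in the authors' deposited table, with a log2 fold change of 0.53 (SE 0.99, 95% interval −1.41 to 2.48). Phf19 on chromosome 2 (34893757 to 34914026, minus strand) had 10.2 in control and 15.7 in H3K36M there, with a log2 fold change of 0.62 (SE 0.88, 95% interval −1.10 to 2.35) in that deposited table. These 3 proteins carry a Tudor domain that binds methylated lysine 36 of H3. Their largest point estimates, those of Phf1 and Phf19, are also the least certain of the 10: the fold intervals run from 0.376 to 5.56 and from 0.465 to 5.10. Exons of Cuta on the other strand cover 39.3% of the exon bases of Phf1. Cuta stood at 330.2 and 326 normalised counts, a log2 difference of −0.02 (SE 0.18) in the authors' deposited table. The libraries were directional, per the labels' protocols, but whether counting used the strand is not given in the sources used here, so Phf1 and Cuta reads may be mixed. For the other members the exon bases shared with a gene on the other strand came to at most 6.93% (Tmed5 at Mtf2), and no gene on the same strand shared any.

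**Figure D2:**
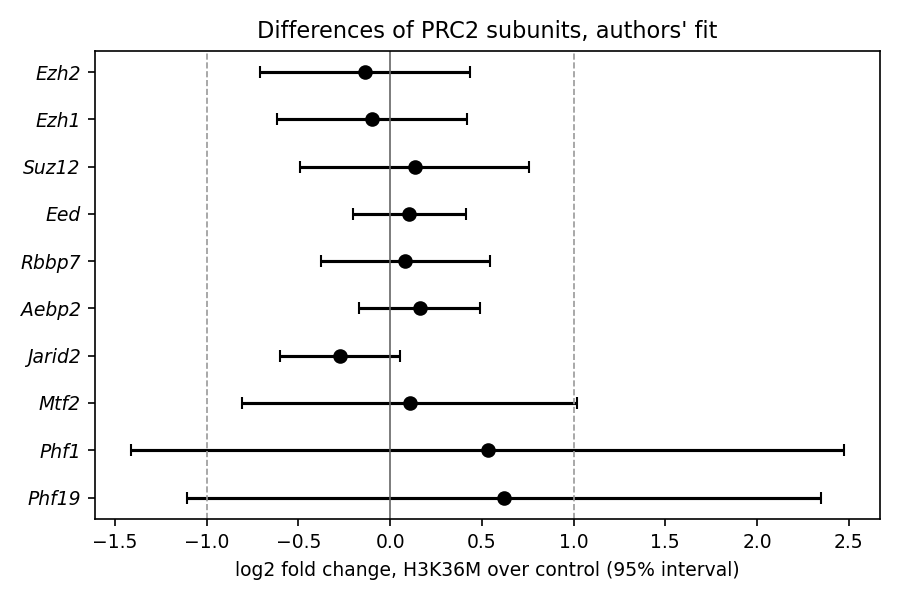
Log2 fold change of H3K36M over control (points) with 95% intervals from the authors' standard errors (bars) for the 10 PRC2 subunits; dashed lines mark a change of 2-fold. Every interval includes 0, and those of Mtf2, Phf1 and Phf19 reach past a dashed line.

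The intervals give the range of change left by each estimate and its SE. For 7 of the 10 members the 95% interval lay inside a 2-fold change in either direction, and for 3 (Aebp2, Eed and Rbbp7) inside a 1.5-fold change. Over all tested genes these shares were 37.9% and 12.1%. Among the 5237 tested genes whose mean reached 400 normalised counts they were 71.2% and 23.9%. The mean reached 400 for 8 members, and these include all 7 members inside 2-fold. The smallest estimate that would have passed the adjusted threshold at each member's own SE ran from 1.41-fold for Eed, 1.44-fold for Jarid2 and Aebp2, 1.67-fold for Rbbp7 and 1.89-fold for Ezh2 to 2.75-fold for Mtf2, 6.80-fold for Phf19 and 8.63-fold for Phf1. These are sizes of estimates. They are no limit on true changes, since an estimate can fall above or below the true change.

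The SE also gives a model value, not an observed one, of how far each transcript varied between samples. Under a negative binomial with 1 dispersion for both groups, the coefficient of variation between samples implied by the authors' SE (standard deviation over mean) was 0.190 for Eed, 0.204 for Jarid2 and 0.209 for Aebp2. It was 0.293 for Rbbp7, 0.326 for Ezh1, 0.361 for Ezh2, 0.396 for Suz12 and 0.578 for Mtf2. Phf1 and Phf19 stood apart with 1.23 and 1.06. Set beside tested genes whose mean lay within 2-fold of its own, Eed had a larger SE than only 8.37% of 4387 genes and Jarid2 than 11.0% of 4117. Mtf2 had a larger SE than 78.8% of 4070 such genes and Phf1 than 86.9% of 2762. Why the SE of Phf1 was large beside genes of like mean was not tested.

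**Figure D3:**
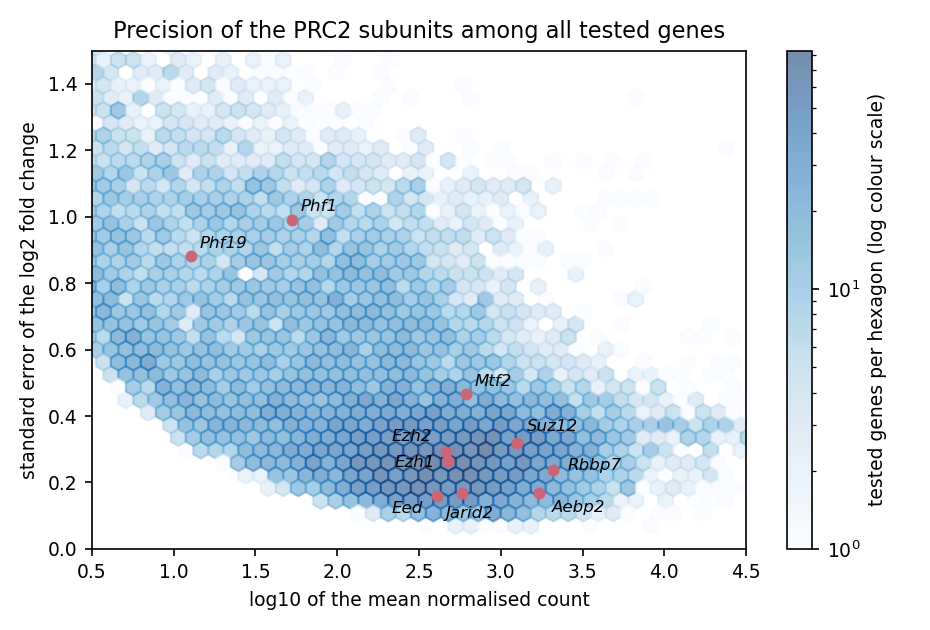
Standard error of the log2 fold change against the log10 of the mean normalised count for tested genes (hexagons, darker where more genes fall) and the 10 PRC2 subunits (points); the axes are cropped to the range around the members. Eed, Jarid2 and Aebp2 lie at the lower edge of the cloud, while Phf1, with an SE of 0.99, lies near its upper edge.

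Ordered by level per kb of exon in control, the members were Rbbp7 (696 normalised counts per kb), Suz12 (243), Aebp2 (166), Mtf2 (104.4), Eed (103.5), Ezh2 (71.9), Ezh1 (66.2), Jarid2 (65.2), Phf1 (12.7) and Phf19 (2.02). The order was the same in H3K36M. With the longest transcript as the length the order in control changed: Aebp2 (276) and Suz12 (274) swapped places, and Eed (192) and Ezh2 (172) stood above Mtf2 (147). Neighbours whose gap in control did not exceed the larger of their implied standard deviations were Suz12 and Aebp2, Mtf2 and Eed, Ezh2 and Ezh1, Ezh1 and Jarid2, and Phf1 and Phf19. Per kb, Ezh1 and Ezh2 together reached 0.569 of the level of Suz12 in control and 0.478 in H3K36M, but 1.05 and 0.884 with the longest transcript as the length. Jarid2 and Aebp2 together had 1.94 times the summed level of the 3 Polycomb-like genes in control and 1.79 times in H3K36M. Mtf2 had 7.11 times the summed level of Phf1 and Phf19 in control and 5.25 times in H3K36M. With the longest transcript as the length, the ratio of Jarid2 and Aebp2 to the Polycomb-like genes was 2.15 in control and 2.04 in H3K36M. That of Mtf2 to Phf1 and Phf19 was then 8.73 and 6.44. These are ratios of transcript levels and give no measure of the protein complexes or of H3K27 methylation.

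Lists of genes that act with or against PRC2 are given next, and their counts are to be read beside the 3.43% of all tested genes past the adjusted threshold and the 9.82% at an unadjusted p below 0.05. At these list sizes the counts lie near those shares, apart from the genes repressed by PRC2 in mouse skin epithelium, where 28.6% passed. That share is 2 of 7 tested genes, the keratin pair Krt8 and Krt18. The lists were chosen with earlier results of these data known, so the share is no test of that list. Of 4 other PRC2 partners with reads none passed by the authors' DESeq2, 0 also at an unadjusted p below 0.05, and Lcorl had a log2 fold change of 0.37 (SE 0.48) in the table the authors deposited. Of 27 tested genes of PRC1, which adds ubiquitin to histone H2A, 0 passed, and their median log2 fold change was 0.07. Mga and Phc3, those with the highest mean, had log2 fold changes of 0.04 (SE 0.43) and −0.02 (SE 0.39) in the authors' deposited table, the former turning to −0.03 when fold changes were centred on all tested genes. At an unadjusted p below 0.05 there were 2 PRC1 genes, named here after their values were seen. Rnf2, the catalytic RING subunit, had 394 normalised counts in control and 257 in H3K36M, a log2 fold change of −0.61 (SE 0.27, adjusted p = 0.308, authors' DESeq2) in the authors' deposited table. Scml2 had a log2 fold change of −0.86 (SE 0.40, adjusted p = 0.407, authors' DESeq2) there.

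Enzymes that remove or oppose the mark were next. Kdm6a and Kdm6b, which remove H3K27 methylation, had log2 fold changes of 0.08 (SE 0.35) and 0.54 (SE 0.98) in the table the authors deposited, and 0 of 3 H3K27 demethylases and 0 of 10 genes of the H2A deubiquitinase complex passed, with 0 in either list at an unadjusted p below 0.05. Uty, the Y-linked relative of Kdm6a, had 0.33 (SE 2.89), and Ogt and Asxl2 of the deubiquitinase list had 0.01 (SE 0.44) and 0.11 (SE 0.39) on the same log2 scale in the authors' deposited table. The signs of Ogt and Uty turned when the statistic was centred and scaled. Among the H3K36 methyltransferases 0 of 5 passed by the authors' DESeq2 and 1, Nsd2, had an unadjusted p below 0.05. Nsd1 had a log2 fold change of 0.11 (SE 0.24), Ash1l one of −0.08 (SE 0.30), Setd2 one of −0.02 (SE 0.28) and Nsd2 one of 0.40 (SE 0.20) in the table the authors deposited. Of 11 Trithorax and COMPASS genes, whose products methylate lysine 4 of H3 and counter Polycomb silencing, 1 was higher (9.09%) and 0 lower. That gene, Ash2l, a core subunit of the COMPASS complexes, had 622 normalised counts in control and 901 in H3K36M and rose by 0.53 on the log2 scale (SE 0.15, adjusted p = 0.0155 by the authors' DESeq2) in the authors' deposited table. With fold changes centred on the median of all tested genes its adjusted p was 0.0532, and over the other alternatives that adjust p it ran from 0.00784 to 0.0181. Of 20 cell cycle and replication genes 0 passed, 0 also at an unadjusted p below 0.05; their log2 fold changes had a median of 0.21 and 17 lay above 0. Mki67 and Pcna had log2 fold changes of 0.19 (SE 0.42) and −0.04 (SE 0.30) in the authors' deposited table.

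**Figure D4:**
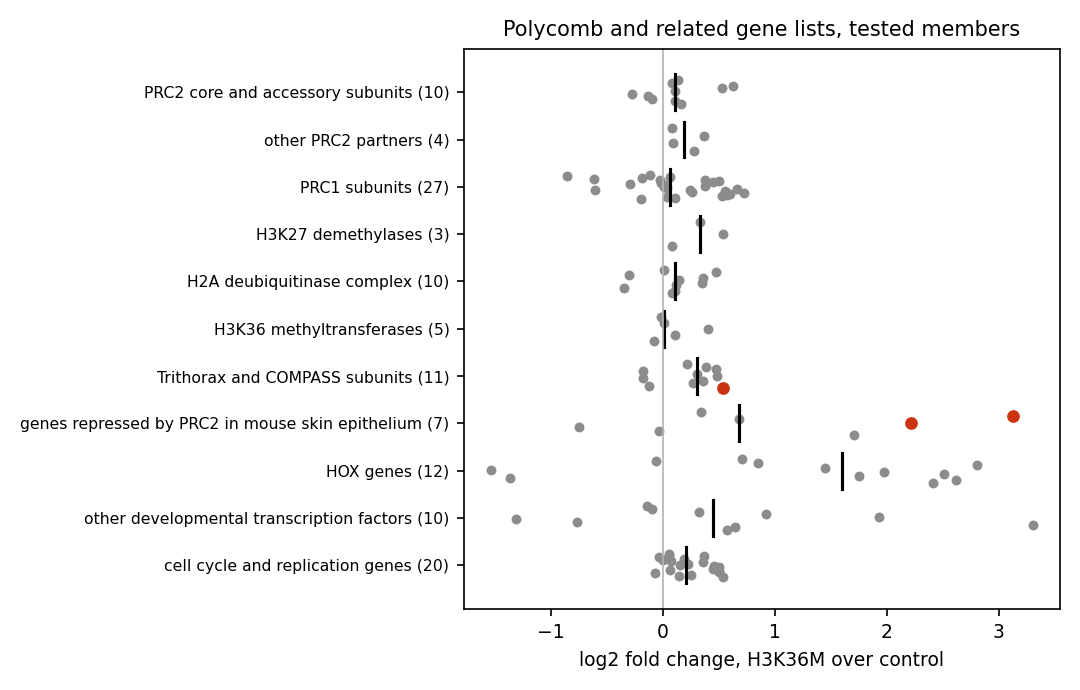
Log2 fold change of H3K36M over control for the tested genes (points) of PRC2 and 10 related lists, with the number tested in brackets, the median of each list as a vertical bar, and genes past an adjusted p of 0.05 in red. The PRC2 points lie between −0.27 and 0.62 without a call, and the calls are Ash2l, Krt8 and Krt18.

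In a list of genes repressed by PRC2, chosen with earlier results of these data known, a pair of keratins was higher in H3K36M. Of 8 genes that PRC2 is known to repress in mouse skin epithelium 7 were tested by the authors, whose deposited table has 2 higher and 0 lower. These were Krt8, at 17.8 normalised counts in control and 156 in H3K36M (log2 fold change 3.13, SE 0.71), and Krt18, at 37.7 and 175 (2.22, SE 0.67), the keratin pair of simple epithelia. Krt8 and Krt18 belong to gland and duct cells as well, and in bulk tissue more cells of a type and more RNA per cell cannot be told apart. Whether PRC2 has a part in either difference was not tested. The others did not pass: Isl1 had 610.0 and 362 normalised counts, Sox2 444 and 561, Cdkn2b 117 and 114, and Cdkn2a, the cell cycle inhibitor locus silenced by Polycomb, 1.40 and 4.55 in the authors' deposited table. Krt20, a keratin of Merkel cells, had a log2 fold change of 0.68 (SE 1.14) there. These 5 were named after their values were seen. Of the HOX genes, classical Polycomb targets, 12 of 39 were tested, 8 were marked as outliers without a p in the authors' deposited table and 0 passed by the authors' DESeq2. The 12 tested had a median log2 fold change of 1.60 with 9 above 0, mostly at low levels, and the 8 outliers were all above 0 (3.19 to 5.32), as were 151 of all 175 outliers. At an unadjusted p below 0.05 there were 2 HOX genes, Hoxc13 and Hoxb9, the latter named after its values were seen. Hoxb9 had 0.689 normalised counts in control and 4.24 in H3K36M (log2 fold change 2.62, SE 0.93, adjusted p = 0.111, authors' DESeq2) in the authors' deposited table. The genes of highest mean, Hoxc13 and Hoxd8 had log2 fold changes of −1.36 (SE 0.51) and −0.06 (SE 1.25) in the authors' deposited table. The adjusted p of Hoxc13 was 0.149 by the authors' DESeq2 and 0.0454 with the statistic centred and scaled. Of 26 other developmental transcription factors 10 had enough reads for a test, 0 passed and 0 had an unadjusted p below 0.05. Pax3 and Sox17 led by mean, at 18.9 and 15.7 normalised counts in control and 35.8 and 14.2 in H3K36M in that deposited table by the authors.

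The defining markers of the labelled tissue were present, and markers of some other cell types differed in level between the groups. All 10 epithelial markers had reads, 1 being higher (Epcam, log2 fold change 0.72, SE 0.20) and 1 lower (Krt14, whose promoter drives Cre, −0.87, SE 0.26) in the authors' deposited table, both named after their values were seen. They were led by Krt13 and Krt4, keratins of oral epithelium, at 1161189 and 714848 normalised counts in control in the authors' deposited table. In the same comparison as the PRC2 values, the summed level of 14 skeletal muscle markers was 118101 in control and 33395 in H3K36M with 0 past the test, 0 also at an unadjusted p below 0.05. For 10 neutrophil markers, all tested, the sum was 164 and 1849, with 2 higher (20%) and 6 at an unadjusted p below 0.05. For 10 salivary acinar markers, all with reads, it was 27.2 and 680. Of these, 6 were tested, 2 were outliers and 2 had a low mean. Among the 6 tested, 3 were higher (50%) and 5 had an unadjusted p below 0.05. The shares over all tested genes were 3.43% and 9.82%. The 2 neutrophil calls were S100a8 and S100a9, which keratinocytes also express, and without them the sum of the other 8 neutrophil markers was 54.9 in control and 146 in H3K36M. Myh4 and Tnnt3 led the muscle list at 33414 and 13405 normalised counts in control, S100a9 and S100a8 the neutrophil list at 911 and 792 in H3K36M, and Aqp5 and Muc19 the acinar list at 226 and 160 in H3K36M in the authors' deposited table. Fibroblast, endothelial and leukocyte markers had 0 calls, with 1 leukocyte gene at an unadjusted p below 0.05, and list medians on the log2 scale of 0.08, −0.23 and 0.16. What these cells contribute to the levels of the PRC2 transcripts was not tested.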

How the data were processed

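PolyA RNA of 13 tongue epithelium samples was sequenced as single ends (directional libraries), per the labels' protocols. The tools STAR, DESeq2 and the build GRCm38 (mm10) are named in the submitters' processing notes; the annotation, the design formula and the counting tool are not given in the sources used here. Per the file headers, the authors' deposited table holds the mean and both group levels as normalised counts (a signal scale), the log2 fold change with its SE on the log2 scale, the Wald statistic (a score), and p-values with adjusted p-values. Its 2 companion GO tables name no genes and were not used.

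In 19909 of 19909 genes with reads the group levels averaged to the mean (relative tolerance 1e-06), and the higher level always matched the direction of the fold change. An adjusted p was present for 17449 genes; 7348 of low mean and 175 outliers had none. Benjamini-Hochberg adjustment, 95% normal intervals and implied coefficients of variation (size factors taken as 1) were computed in Python 3.11.15 with pandas 2.3.3 and scipy 1.17.1. Exon lengths (GENCODE M21) were computed in Python as well. Only the adjustment and the implied coefficients of variation were tested on simulated data. The simulated coefficients lay below those of Phf1 and Phf19, and the simulated means above that of Phf19. Without values of single samples no count test was run, and depth per sample is unknown, so precision is that of the SE. The labels do not tie samples to animals, so p-values measure the spread between samples.

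Members and gene lists were chosen with earlier results of these data known. Named genes were the 10 members, Rbbp4, Kdm6a, Kdm6b, Setd2, Nsd1 and Nsd2, up to 6 called genes of each pathway list or else the 2 of highest mean, and the 2 of highest mean of each marker list; not every marker gene the rule selects is described. Genes most like a member in pattern would need values of single samples and are not named. The 7 alternatives changed the threshold, the filters, the adjustment and the centring.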

Additional observations from a re-analysis of the deposited data

How the results depend on the processing

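The count of PRC2 members past the threshold was 0 under all 7 alternatives, and none of their 69 member values changed direction or call. Direction could change only under the settings that centre, since the others keep the authors' fold changes. Phf19, with a mean of 12.7, dropped out at a mean of at least 50. The lowest adjusted p of any member was 0.409 (Jarid2, statistic centred and scaled). Over all genes the count past the threshold was 599, but 1714 at an unadjusted p below 0.05 and 315 at a mean of at least 50. Centring the fold changes turned Mga to −0.031 and Ogt to −0.060; centring and scaling the statistic turned Mga to −0.033, Ogt to −0.062 and Uty to −0.13. None of these 3 genes passed under any setting, and the sign flips follow from the shift by the median. The Ash2l call was lost with centred fold changes. Hoxc13 passed with the centred and scaled statistic (adjusted p = 0.0454). That setting shifts and rescales the statistics of all genes. With it 792 genes passed and 418 of them were lower, beside 599 and 277 in the main setting. Levels per kb in control rose for 5 members by more than their implied standard deviation with the longest transcript as the length: 117 (Ezh1), 172 (Ezh2), 192 (Eed), 276 (Aebp2) and 903 (Rbbp7). Leaving out samples was not run, as it needs values of single samples. No paired analysis was possible because the labels give no replicate numbers (samples were numbered here in accession order, as names only) and the table has no values of single samples. Precision was lowest for Phf1 and Phf19 (SE 0.99 and 0.88), and depth per sample is unknown.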

Other observations

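Precision and direction moved with base composition. Tested genes that had a GENCODE M21 transcript and whose mean reached 50 normalised counts (10999) were split into 4 bins of equal size by the GC content of the longest transcript. In the bin of highest GC content (54.1% to 69.2%) the SE had a median of 0.62 and the log2 fold change one of 0.28, from the authors' deposited table. The bin below it (from 49.4%) had medians of 0.31 and 0.03, the next (from 44.6%) 0.27 and −0.04, and the bin of lowest GC content 0.36 and 0.02. Across these genes, which are not independent replicates and share all libraries, Spearman's rho of GC content was 0.26 with the SE and 0.26 with the log2 fold change. This description was added after the data were seen.

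Phf1 (58.6% GC) and Phf19 (53.9%) had the highest GC content of the 10 members, the lowest means (53.2 and 12.7 normalised counts), the largest SEs (0.99 and 0.88) and the largest log2 fold changes (0.53 and 0.62) in the authors' deposited table. Phf1 falls in the bin of highest GC content. Phf19 would fall in the bin below it and its mean keeps it out of these bins, and its values lie above the medians of that bin. The other 8 members ran from 38.2% (Mtf2) to 51.2% (Ezh1), with SEs of 0.16 to 0.47. The part of base composition or of a low mean in the values of Phf1 and Phf19 was not tested.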
